A study of Zea mays with 6 samples.

Results

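The 2 genes described here, selected as dehydrins, are the rows Zm00001d037894 and Zm00001d043730 of a table of 44320 maize genes. Both were chosen by identifier, the first under the name dhn1 and the second under the name dhn2. The deposited table holds no gene names, and 0 of its identifiers matched the RefSeq annotation for Zm-B73-REFERENCE-NAM-5.0, with 49888 genes, in which 1 entry carries the synonyms dhn1 and rab17 and 1 entry carries dhn2. Neither pairing was therefore checked in the files. Zm00001d037894 is called dhn1 below, the name it usually carries in maize gene lists. For Zm00001d043730 the name dhn2 is in doubt and the row may be another gene, so it is called by its identifier only.

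Dehydrins are strongly hydrophilic proteins of the late embryogenesis abundant group, built around a lysine-rich motif called the K-segment, that accumulate in plant cells losing water and in maturing seeds. In the drought response the hormone abscisic acid accumulates and its signalling switches on dehydrin genes, which is why their transcripts are widely used as markers of water deficit. The maize dehydrin dhn1, also called rab17 for its response to abscisic acid, is among the best known of these markers. Abscisic acid and gibberellin act against each other in many plant responses.

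The libraries were made from leaves at the V8 vegetative stage of greenhouse-grown maize (Zea mays) and measured by RNA sequencing. The KO1 group (3 libraries) came from 1 line labelled as a knockout of ZmGA20ox3, which encodes a gibberellin 20-oxidase, an enzyme of gibberellin synthesis. The WT group (3 libraries) came from wild-type plants. KN5585 is the cultivar given for both groups, which were grown without an imposed stress, per the labels, while the protocol writes the wild-type line as KN5855. The libraries of a group are described as biological replicates, and whether a library holds 1 plant or several, and what the water status of each plant was, is not given in the sources used here. The comparison asks how high these transcripts stood in leaves of edited and wild-type plants grown without an imposed stress.

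The 2 rows stood far apart in level. The dhn1 transcript stood between 13.1 and 252 TPM over the libraries, and Zm00001d043730 stayed under 1 TPM in every library. Levels are in TPM, a measure of transcript abundance relative to the library, which the authors scaled by gene length and to a fixed total in each library, so that the 2 genes can be set side by side. In these leaf extracts, fewer cells of a type and less RNA per cell cannot be told apart.

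For dhn1, the KO1 libraries spread over a wide range on both sides of the WT libraries. The KO1 libraries held 128 TPM of the transcript in replicate 1, 252 TPM in replicate 2 and 13.1 TPM in replicate 3, against 77.1, 40.7 and 44.2 TPM in the WT libraries of those numbers. KO1 replicates 1 and 2 lay above every WT library and KO1 replicate 3 lay below every WT library, so the groups overlapped. The mean was 131 ± 120 TPM in KO1 and 54.0 ± 20.1 TPM in WT (SD, n = 3 each). The ratio of these means, 2.43, rests on the 2 high KO1 libraries, and the difference between the genotypes was smaller than the spread among the KO1 libraries.

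**Figure D1:**
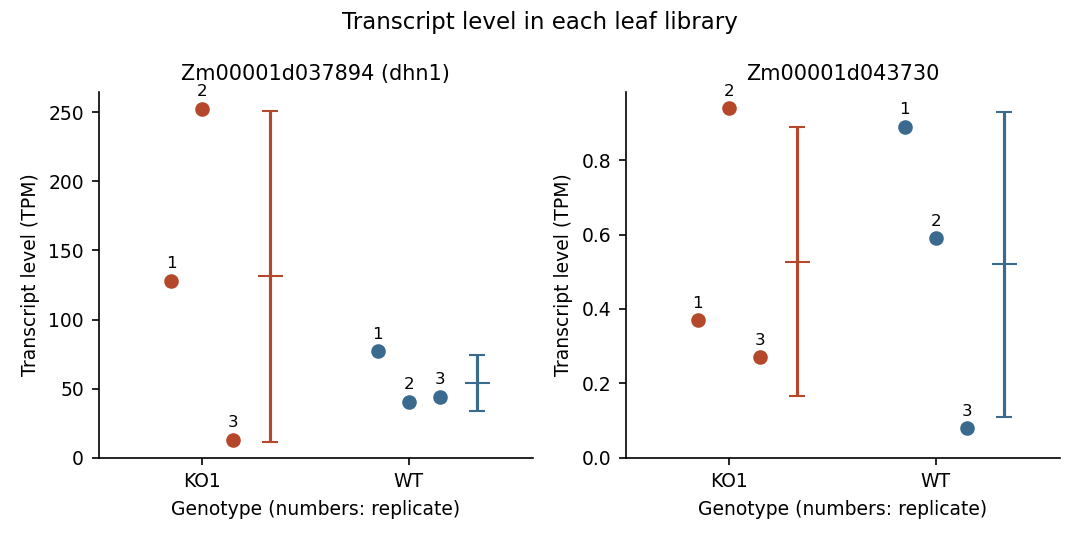
Transcript level in TPM of dhn1 (left panel) and Zm00001d043730 (right panel) in each library, with KO1 and WT along the horizontal axis, the replicate number above each point, and the mean and SD (n = 3) beside each group. The dhn1 points of KO1 run from 13.1 to 252 TPM and enclose the WT points, while all Zm00001d043730 points lie under 1 TPM on a much smaller axis.

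No difference in dhn1 between the genotypes was detected. On the log2(TPM + 1) scale dhn1 stood at 6.27 ± 2.18 in KO1 and 5.72 ± 0.49 in WT (SD, n = 3 each). The difference, KO1 minus WT, was 0.55 with a standard error of 1.01 (limma across 20990 genes, adjusted p = 0.733, unadjusted p = 0.604). Its 95% interval ran from -1.86 to 2.96, which covers a level of TPM + 1 in KO1 anywhere from 0.275 to 7.81 times that in WT. In limma the variance of each gene is drawn toward that of the other genes. For dhn1, with its wide spread in KO1, this interval is narrower than its own values alone would give. The fit also takes the same variance for both groups, while the SD of dhn1 was 2.18 in KO1 and 0.49 in WT. These libraries therefore leave room for at least a several-fold difference in either direction. The test does not show that the genotypes had the same dhn1 level. An exact two-sided permutation test on the same log2 values gave p = 0.7, where 3 libraries against 3 cannot give less than 0.1.

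Set against the other genes, the outcome for the pair was 0 calls of 1 tested. Of the 2 rows, dhn1 passed the filter of at least 1 TPM in at least 3 libraries and Zm00001d043730 did not. Over all 20990 tested genes, 15.7% were called at an adjusted p under 0.05, with 9.87% higher and 5.86% lower in KO1, and the groups did not overlap for 40.5%. At an unadjusted p under 0.05, which 34.3% of tested genes passed, dhn1 was not called either. Of the tested genes, 39.8% had a larger difference in size than dhn1, and 17290 had a smaller p. Quantile normalization gave 1678 higher and 1721 lower calls in place of 2071 and 1230, and library weights gave 6838 calls. The number called over all genes, 3301, was also sensitive to single libraries, at 1482 and 1856 when KO1 replicate 1 or 2 was left out and 1314 and 778 when WT replicate 1 or 3 was. It was 2246 without KO1 replicate 3 and 2929 without WT replicate 2. All of these fits also had fewer libraries.

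The dhn1 difference turned on single KO1 libraries. Without KO1 replicate 3, the low library, it was 1.78 with a 95% interval from 0.76 to 2.79 (limma adjusted p = 0.052). That interval is not adjusted for the number of genes tested, while the p-value is. Leaving out this library also lowered the pooled within-group SD of dhn1 from 1.581 to 0.598, and the difference was still not called. Without KO1 replicate 2, the highest library, the dhn1 difference changed sign to -0.31 (limma adjusted p = 0.852). KO1 replicate 3 carries the same labels as the other KO1 libraries, and nothing in the labels sets it apart.

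**Figure D2:**
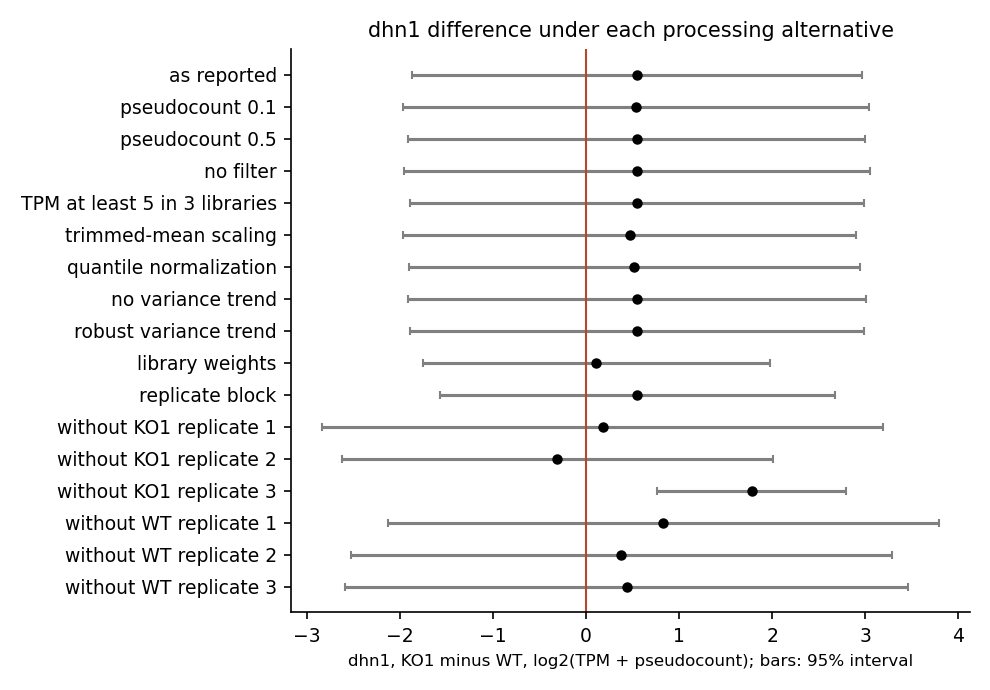
The dhn1 difference (KO1 minus WT) on the horizontal axis, in log2(TPM + pseudocount), as reported and under each processing alternative down the page; points are limma estimates and bars their 95% intervals. All intervals, which are not adjusted for the number of genes, include 0 except that without KO1 replicate 3. The estimate lies under 0 only without KO1 replicate 2.

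The spread of dhn1 among KO1 leaves was unusual among leaf transcripts, as a description of these libraries. The highest KO1 library had 19.3 times the dhn1 TPM of the lowest, and the highest WT library 1.89 times that of the lowest. Over the 17378 genes that reached 1 TPM in every library, the median of this ratio was 1.47 in KO1 and 1.38 in WT. In KO1 99.8% of these genes had a smaller ratio than dhn1, and in WT 80.1% had. At least 10-fold ratios were found for 74 genes in KO1, dhn1 among them, and for 146 genes in WT, where dhn1 was not among them.

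The spread of dhn1 in KO1 was also large beside genes of like abundance. Among the 2863 other tested genes whose mean TPM lay within 2-fold of that of dhn1, the median SD of log2(TPM + 1) was 0.29 in KO1 and 0.22 in WT. The SD of dhn1 was 2.18 in KO1, larger than for 99.2% of those genes, and 0.49 in WT, larger than for 82.9% of them. With 3 libraries in each group the difference in spread between the genotypes was not tested.

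**Figure D3:**
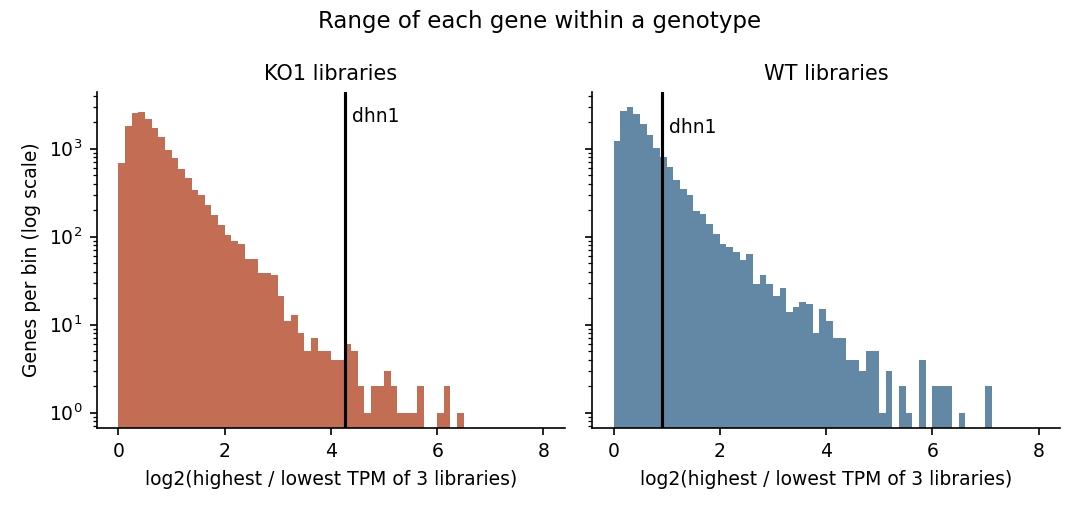
Histogram over 17378 genes of log2 of the highest over the lowest TPM among the 3 KO1 libraries (left panel) and among the 3 WT libraries (right panel), with the number of genes per bin on a log scale. The vertical line marks dhn1, which lies in the far tail in KO1 (19.3-fold) and within the bulk in WT (1.89-fold).

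The libraries as a whole did not move the way dhn1 did. Between KO1 replicates 2 and 3, dhn1 differed by 4.17 on the log2(TPM + 1) scale, while the median size of the difference over all tested genes was 0.36 and 0.24% of genes differed more. Between KO1 replicates 1 and 3 it differed by 3.20, against a median of 0.29, and 0.32% of genes differed more. KO1 replicates 1 and 3, which differed 9.79-fold in dhn1, had a Spearman's rho of 0.95 across tested genes, the highest among the KO1 pairs, where rho ran from 0.91. In WT, replicates 2 and 3 differed 1.085-fold in dhn1 TPM, and replicate 1 stood 1.89-fold above replicate 2. Having 2 KO1 libraries above and 1 below every WT library, as dhn1 had, was found for 775 tested genes (3.69%), and in 259 of these KO1 replicate 3 was the low one.

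The position of dhn1 within each leaf transcriptome moved accordingly. By rank in its library dhn1 was number 1145, 544 and 10116 in KO1 replicates 1 to 3, and number 2057, 4085 and 3600 in WT. Its level exceeded that of 97.4% of tested genes in KO1 replicate 2 and of 51.9% in KO1 replicate 3. In WT it exceeded that of 80.6% to 90.2% of tested genes. The transcript was thus among the more abundant ones in every library except KO1 replicate 3, where it was near the middle.

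Other transcripts had profiles near that of dhn1, and the 3 nearest are described, a number fixed as a setting. Likeness was measured as the root-mean-square difference between log2(TPM + 1) profiles over the 6 libraries, after centring each gene on its own mean, among 15402 tested genes with a mean of at least 5 TPM. Zm00001d018298 was the nearest at 0.16, against a median of 1.37 over these genes. Its KO1 libraries held 295, 643 and 41.6 TPM in the order of their numbers, and its WT libraries 221, 118 and 144 TPM. Like dhn1 it had 2 KO1 libraries above and 1 below every WT library, at 2.63 times the mean level of dhn1, with a KO1 range of 15.5-fold and a WT range of 1.87-fold.

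The next nearest were Zm00001d007411 at 0.39 and Zm00001d039000 at 0.49. The gene after them followed closely at 0.51, so these 3 are not a set apart. Zm00001d007411 had 10.3, 41.1 and 0.95 TPM in KO1, and 7.59, 5.56 and 7.82 TPM in WT. Zm00001d039000 had 282, 606 and 73.3 TPM in KO1, and 170, 99.1 and 83.0 TPM in WT. All 3 were highest in KO1 replicate 2 and lowest in KO1 replicate 3, and none of them was called between the genotypes (limma adjusted p = 0.815, 0.859 and 0.357). These genes were picked for this likeness out of many over only 6 libraries, and what they encode was not analysed here.

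**Figure D4:**
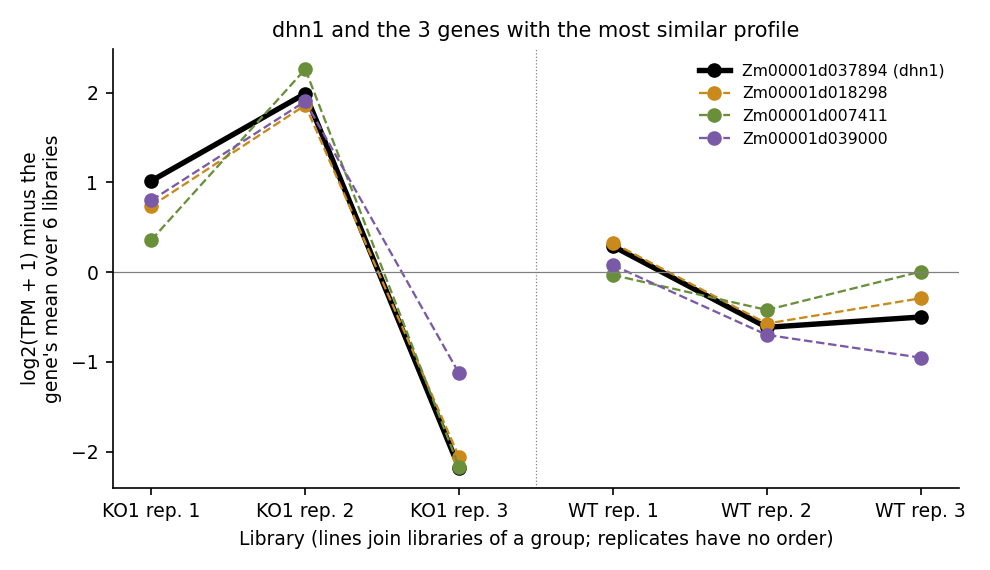
Profiles of dhn1 (solid) and the 3 genes nearest to it (dashed) over the 6 libraries, as log2(TPM + 1) minus the mean of each gene over all libraries; lines join libraries of a group, which have no order. All 4 profiles peak in KO1 replicate 2 and are lowest in KO1 replicate 3, and the WT libraries lie between these ends.

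Zm00001d043730 was barely detected in these leaves. In the order of their numbers, the KO1 libraries held 0.37, 0.94 and 0.27 TPM and the WT libraries 0.89, 0.59 and 0.08 TPM. The groups overlapped throughout, with the highest value in KO1 replicate 2 and the lowest in WT replicate 3. Its mean was 0.53 ± 0.36 TPM in KO1 and 0.52 ± 0.41 TPM in WT (SD, n = 3 each; exact permutation p = 1 on TPM and p = 0.9 on log2(TPM + 1)). Rows above 0 but under 1 TPM throughout numbered 6819, or 15.4% of the table. Of the 30705 rows above 0 in any library, 24.5% had a lower mean than Zm00001d043730.

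At such a level the table says little about Zm00001d043730. Values carry 2 decimals and the sequencing depth is unknown, so the number of reads behind 0.08 or 0.94 TPM cannot be given. In a fit over all rows above 0 the difference, KO1 minus WT, was 0.02 on the log2(TPM + 1) scale with a 95% interval from -0.61 to 0.65 (limma adjusted p = 0.970). Since log2(TPM + 1) flattens values this low, that narrow interval does not bound the fold.

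Nearly all of the summed transcript of the 2 rows came from dhn1. Its share of their joint TPM was 99.71%, 99.63% and 97.98% in the KO1 libraries, and 98.86%, 98.57% and 99.82% in the WT libraries. The dhn1 level was the higher one in all 6 libraries, by 48.5-fold to 347-fold in KO1 and 69.0-fold to 552-fold in WT, ratios whose lower term is under 1 TPM throughout. The log2 ratio of the 2 levels, each with 1 TPM added, was 5.69 ± 1.93 in KO1 and 5.16 ± 0.38 in WT (SD, n = 3 each; exact permutation p = 0.8). The summed level was 132 ± 120 TPM in KO1 and 54.5 ± 20.4 TPM in WT (SD, n = 3 each), and on the log2 scale the groups did not differ beyond their spread (exact permutation p = 0.7). Both rows had their highest value in KO1 replicate 2 and, within KO1, their lowest in replicate 3. In WT the order was not shared below the highest library, which was replicate 1 for both.

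Lists of other dehydrin, late embryogenesis abundant, abscisic acid and leaf marker genes were set up by name. None was analysed here, because no identifier of the table matched the RefSeq annotation used to look up names. Whether other water-deficit transcripts followed dhn1, whether the leaf label holds by its markers, and the level of ZmGA20ox3 itself were therefore not analysed.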

How the data were processed

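RNA sequencing was done on 3 KO1 and 3 WT leaf libraries. The authors deposited 1 table of TPM values, each column summing to 1000000 within rounding. The submitters' processing notes list Bowtie2, RSEM and DESeq2 and give neither version nor role. The genome build, like the annotation and read filters, is not given in the sources used here. Because TPM keeps no depth, no counting interval is given. Groups and replicate numbers came from sample titles.

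The comparison of KO1 with WT used limma 3.58.1, run in R 4.3.3, with a variance trend and no covariates. It was fitted to log2(TPM + 1) of the 20990 genes with at least 1 TPM in at least 3 libraries, with Benjamini-Hochberg adjustment over all of them and a threshold of 0.05. Exact permutation tests were two-sided. The scale understates changes of low genes. The procedure was tested on simulated data that gave each gene the same spread in both groups, unlike the dhn1 values here. Both rows are named by their selection, and the 3 genes with the nearest profile to each by a fixed rule (mean of at least 5 TPM). The members and lists were chosen with earlier results of these data known, and the comparisons of ranges and library pairs after the dhn1 values were seen. Biological replicates are stated, but p-values measure only the spread between these libraries. Those from limma rest on a gene's own spread and, in part, on that of the other genes. Same-numbered KO1 and WT libraries deviated together at r = -0.01, 0.09 and 0.02, across genes, and no pairing was assumed. Figures were made in matplotlib 3.10.9.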

Additional observations from a re-analysis of the deposited data

How the results depend on the processing

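The dhn1 difference stayed positive in 15 of 16 alternatives and was uncalled in all 16. These covered the pseudocount, the filter, 2 scalings, the variance model, library weights, the replicate block and each left-out library. With single libraries left out the range was -0.307 to 1.778 for dhn1, -0.140 to 1.639 for the log2 ratio of the 2 rows and -0.304 to 1.769 for their summed level on the log2 scale. All 3 turned negative without KO1 replicate 2 and were highest without KO1 replicate 3. With library weights the dhn1 difference was 0.112. The difference of Zm00001d043730 lay between -0.209 and 0.291 over the 12 alternatives that gave it a value, with a sign that varied, and moved by less than its spread in each; the highest came with library weights. Without a test of this row, the 5 TPM filter, the variance models and the replicate block gave it none. The genes called over the table numbered 778 to 2929 with a library left out and 6838 with library weights, in which WT replicate 3 had a weight of 8.53 and KO1 replicate 2 the lowest, 0.377. With the replicate block dhn1 had an unchanged difference of 0.550 (limma adjusted p = 0.679) and 2806 genes were called, so the block changed no call on dhn1; the KO1 library numbered 2 was the only one to correlate best with its own WT number. Quantile normalization moved the share of higher calls, to 1678 higher and 1721 lower from 2071 and 1230, and dhn1 then differed by 0.517. Alternatives for the gene lists were not run. The causes of these shifts were not tested.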

Other observations

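The 3 tested genes with the nearest centred profile to Zm00001d043730 were Zm00001d042869 at a root-mean-square difference of 0.08, Zm00001d039685 at 0.11 and Zm00001d026319 at 0.145. These stood at 177 ± 32.7, 183 ± 27.8 and 7.28 ± 1.75 TPM in KO1 and 167 ± 51.6, 186 ± 60.5 and 7.88 ± 2.15 TPM in WT (SD, n = 3 each). With 8534 of 15402 genes within 0.5 of this nearly flat profile, the likeness is of little weight. On the same measure dhn1 and Zm00001d043730 were 1.17 apart, and 1078 genes lay nearer to dhn1 than Zm00001d043730 did.

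The genes with at least a 10-fold range within a genotype were shared unevenly among libraries. Only the 17378 genes with 1 TPM or more in every library were counted, which leaves out genes that drop under 1 TPM in a single library, such as Zm00001d007411 at 0.95 TPM in KO1 replicate 3. Of the 74 in KO1, 36 were lowest in replicate 3, 27 in replicate 2 and 11 in replicate 1, while 39 were highest in replicate 2. Of these 74, 30 had the order seen for dhn1, with replicate 2 highest, replicate 1 between and replicate 3 at least 10-fold below replicate 2. Of the 146 in WT, 112 were lowest in replicate 1 and 129 highest in replicate 2, while dhn1 parted in the opposite direction between the same libraries, 1.89-fold higher in replicate 1 than in replicate 2.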
